A study of Drosophila melanogaster with 2 samples.

Results

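The peaks described here are those of the protein product of CG10979, a Drosophila melanogaster gene, that lie in introns of genes shorter than 50 kb. Chromatin immunoprecipitation with sequencing (ChIP-seq) was run with an antibody against GFP on whole embryos aged 0-14 hours, of both sexes pooled, from 1 transgenic line that stably expresses CG10979 with GFP at its C terminus. The single group has 2 biological replicates, numbered 2 and 3 by the labels, with no other genotype, treatment or stage to compare. Each list is thus an average over all cell types and 14 hours of development, and over whatever cells express the fusion. The irreproducible discovery rate (IDR) list, named for a method that compares peak ranks between replicates, holds the strongest of the peaks called on both replicates together. It is the top of that pooled list by signal value, so a single peak in it need not rank alike in both replicates. A member is an IDR peak whose summit lies more than 500 bp from every annotated transcript start, in no annotated exon and inside a gene, where the longest gene over the summit spans less than 50 kb. By this rule 1902 IDR peaks (24.9%) were members, in 994 genes, and the remaining 5728 were not. The rule used position only, so signal values and sequence are measurements it did not select on, apart from the entry of every peak into the IDR list.

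Introns of fly genes hold many of the enhancers that set when and where a gene is transcribed, and the first intron, next to the promoter, is often the longest. A ChIP-seq peak marks DNA that was recovered with the tagged protein, through direct contact or through other proteins. Its summit is the position of highest read pile-up, and sequence that the protein or its partners recognise is usually sought near it. CTCF is an insulator protein with many zinc fingers, the TATA box is a core promoter element, and runs of A and T are also recognised by many proteins that contact the minor groove.

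Sequence at the strongest members is shown first, in sets divided by a word that was chosen with replicate values in view. The word is itself rich in G and C. Some strong members without it, such as both in chas, were also higher in replicate 3. Each window runs 50 bp to either side of the summit on the plus strand of dm6 (Release 6), read from the RefSeq genome. Members on 1 chromosome arm are left out of both sets. The first set is the 5 strongest of the other members whose window holds AGNTGGCGC on either strand, called the CTCF-type word below. Capitals mark that word.
siz: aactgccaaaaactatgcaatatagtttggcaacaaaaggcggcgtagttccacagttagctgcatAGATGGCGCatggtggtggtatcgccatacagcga
CG43980: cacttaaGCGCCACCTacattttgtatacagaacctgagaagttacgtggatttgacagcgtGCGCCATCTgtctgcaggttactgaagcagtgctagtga
Syn: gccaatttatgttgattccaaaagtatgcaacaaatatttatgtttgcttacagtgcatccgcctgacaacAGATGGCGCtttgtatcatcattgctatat
CG13003: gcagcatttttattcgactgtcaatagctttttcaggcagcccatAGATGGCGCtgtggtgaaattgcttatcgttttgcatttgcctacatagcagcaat
Naprt: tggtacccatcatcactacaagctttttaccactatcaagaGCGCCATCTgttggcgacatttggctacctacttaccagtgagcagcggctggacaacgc
The windows lie at chr3L:21049814-21049914 (siz), chr3L:21652921-21653021 (CG43980), chr3R:10203701-10203801 (Syn), chrX:16846742-16846842 (CG13003) and chr2L:4196398-4196498 (Naprt). The CG43980 window holds the word on 2 occasions, 9 bases each, and the others once. GC content was 47.5% at siz, 47.5% at CG43980, 36.6% at Syn, 42.6% at CG13003 and 50.5% at Naprt.

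The second set is the 5 strongest such members without the word. Capitals mark, on either strand, the 5 6-mers with the smallest p against weaker intronic peaks, TTAAAA first, which are named with their shares further on.
CG11050: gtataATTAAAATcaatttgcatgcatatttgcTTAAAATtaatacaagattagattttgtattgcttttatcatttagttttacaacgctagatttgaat
Lk6: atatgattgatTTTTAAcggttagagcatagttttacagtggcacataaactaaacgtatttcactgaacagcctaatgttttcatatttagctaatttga
Trl: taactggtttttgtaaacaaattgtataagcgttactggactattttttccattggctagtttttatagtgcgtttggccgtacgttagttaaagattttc
CG32772: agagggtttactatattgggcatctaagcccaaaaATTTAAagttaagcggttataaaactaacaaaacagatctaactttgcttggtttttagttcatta
Gug: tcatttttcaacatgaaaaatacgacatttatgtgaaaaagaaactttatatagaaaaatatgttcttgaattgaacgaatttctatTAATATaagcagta
These windows lie at chr2L:6612661-6612761 (CG11050), chr3R:11760994-11761094 (Lk6), chr3L:14759465-14759565 (Trl), chrX:4910316-4910416 (CG32772) and chr3L:8458286-8458386 (Gug). Their GC content was 21.8%, 29.7%, 32.7%, 30.7% and 21.8% in that order. The Trl window holds none of the 5 6-mers.

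Peaks in introns of shorter genes entered the IDR list slightly less often than the rest of the pooled peaks as a whole. The pooled list, called by the authors on both replicates together, has 30000 peaks, of which 25.4% are in the IDR list. Of its 8017 peaks in this class, 1902 were in the IDR list (23.7%, 95% Wilson interval 22.8% to 24.7%). The share was 25.8% for the 3752 intronic peaks in genes of 50 kb or more, which makes 0.92-fold (adjusted p = 0.0166, Fisher's exact test). It was 26.1% for the pooled list outside the class (0.91-fold, adjusted p = 0.000114 by the same exact test). The difference from long genes did not pass in replicate 2's own list (0.943-fold, Fisher's exact test, adjusted p = 0.0856) or with a cut at the IDR list's median signal value (0.968-fold, exact test, adjusted p = 0.695), nor with genes under 100 kb (0.909-fold, exact test, adjusted p = 0.054). At the median cut the difference from the pooled list outside the class did not pass either (0.986-fold, exact test, adjusted p = 0.695). The other classes lay on both sides of the members, with 29.1% for peaks at starts, 29.6% between genes and 8.14% in exons. The tests are over peaks, which are not replicates, so they describe these 2 libraries. In each replicate's own list, cut to as many of its strongest peaks as the IDR list has, the class made up 25.3% in replicate 2 and 24.4% in replicate 3 (24.8% ± 0.649, SD, n = 2).

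Signal values are the authors' score per peak, and the read depth behind them is unknown. The median member had a signal value of 390.6, with an interquartile range of 263.5 to 694.9 and extremes of 189.9 and 8952. The medians were 377.4 in introns of long genes and 362.2 at gene starts, and the differences were not tested. Members made up 18 of the 100 strongest IDR peaks and 236 of the 1000 strongest. The median member peak was 336 bp wide. The whole peak overlapped an annotated exon for 143 members (7.52%) and covered an annotated start for 1, although every summit was intronic by the rule.

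Both replicates held nearly all members, and replicate 2 gave the higher value at most of them. A summit within 100 bp was found in both replicates' own lists for 1849 members (97.2%), in replicate 2 for 1887 and in replicate 3 for 1862. Since the IDR list is derived from these lists, this share follows in part from selection. Over the 1849 members the median log2 ratio of replicate 2 to replicate 3 signal values was 0.31 with an SD of 0.44, and across peaks the log2 values had a Pearson correlation of 0.912 (1849 members, which share both libraries). Replicate 3 was higher at 345 members (18.7%). The same share was 16.6% in introns of long genes and 23.8% among all other IDR peaks.

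The strongest member lay in the first intron of siz, which encodes a guanine nucleotide exchange factor for Arf GTPases that acts in myoblast fusion. Replicate 2 gave 3597 and replicate 3 gave 5349, where it was the strongest peak of the whole list. The next, in a 140 bp second intron of CG11050, went the other way, with 4472 in replicate 2 and 3105 in replicate 3. The third, 965 bp from a start of Lk6, which encodes a kinase of the translation factor eIF4E, had 3281 in replicate 2 and 2348 in replicate 3.

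Other hosts of the 25 strongest members have varied roles, and no group of functions was tested. Trl encodes the GAGA factor, and its second intron held a peak of 2955 in replicate 2 and 2264 in replicate 3. Gug, which encodes the corepressor Atrophin, had 2486 and 1993, and Hr3, a nuclear receptor gene of the ecdysone response, had 2400 and 1888, in the same order. The list also holds Alh, Kdm2, a histone demethylase gene, JIL-1, a histone H3 kinase gene, bon, a TIF1 family gene, and HmgD, a high mobility group gene. simj, which encodes a subunit of the NuRD complex, held 2 of the 25, with 1834 and 1770 in replicate 2 and 1448 and 1400 in replicate 3. Kinase and signalling genes in the list were for, a cGMP-dependent protein kinase gene, and Pli, which encodes the Pellino ubiquitin ligase of the Toll pathway.

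Of the 25, the 5 peaks in siz, CG43980, Syn, chas and CG13003 were higher in replicate 3 and the other 20 in replicate 2. At Syn, which encodes the synaptic vesicle protein synapsin, the value was 1743 in replicate 2 and 2694 in replicate 3. At CG13003 it was 1272 and 2164, and at chas it was 1518 and 2180. The log2 ratios of these 5 ran from −0.77 to −0.48, and those of the other 20 from 0.24 to 0.53. The sets were divided by the sign of the ratio, so that their ranges are apart follows from the division.

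**Figure D1:**
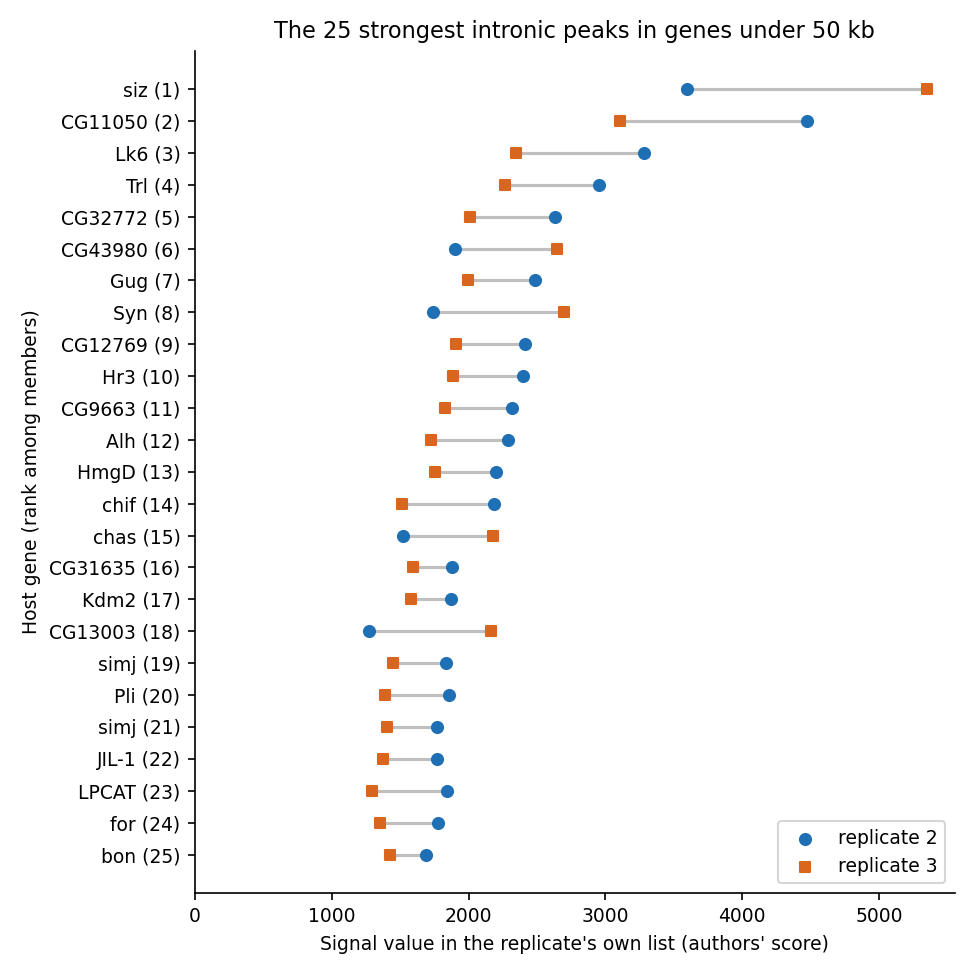
Signal value (authors' score, x axis) of the 25 strongest members in replicate 2 (circles) and replicate 3 (squares), 1 row per peak, named by host gene with the rank among members. The squares lie to the right at siz, CG43980, Syn, chas and CG13003 and to the left in the other 20 rows.

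Members were denser near gene starts and early in their hosts than eligible sequence was, as were weaker peaks of the class. The median distance from a summit to the nearest start was 2432 bp, and 390 members (20.5%) lay within 1 kb of one. Of the intronic sequence that could hold a member, 27.3 Mb in all, only 12.9% lies within 1 kb. Members per Mb of that eligible sequence fell with distance, from 110.9 between 500 and 1000 bp to 85.1 up to 2000 bp, 63.5 up to 5000 bp, 59.6 up to 10000 bp and 39.8 beyond. The median signal value was lower in each bin than in the one before, from 409.5 in the nearest to 361.6 in the farthest, which was not tested. The share of class peaks with an IDR call showed no such order, with 25.1%, 22.7%, 22.1%, 25.8% and 25.5% from near to far. With the host cut into 3 equal stretches, the one at its beginning held 964 members (50.7%) and 37.1% of eligible sequence. Weaker peaks of the class had a median distance of 2353 bp, 19.0% within 1 kb and 47.4% in that stretch, close to the members, and these differences were not tested.

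The first intron held more of the members than of the weaker peaks of the class. It was the position of 1377 members (72.4%, 95% Wilson interval 70.3% to 74.4%) and of 67.8% of the 6115 pooled peaks of the same class outside the IDR list (1.07-fold, Fisher's exact test, adjusted p = 0.000242). An intron counted as first when it was so in any transcript of the host, and 51.5% of eligible sequence was first intron. The difference did not pass with genes up to 100 kb (1.04-fold, exact test, adjusted p = 0.0513). With the longest transcript alone the shares were 58.8% and 54.3%. In replicate 3's own list they were 72.5% and 67.9%, and in replicate 2's 72.1% and 68.1%. The intron had a median of 6589 bp for members, 6053 bp for eligible sequence and 5789 bp for weaker peaks. Only 46 members (2.42%) lay in introns under 500 bp, and 643 (33.8%) in introns over 10 kb.

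Density also differed between chromosome arms and between gene lengths. Members per Mb of eligible sequence were 95.9 on X, 73.4 on 3L, 68.4 on 3R, 63.0 on 2R, 56.9 on 2L and 9.06 on the small chromosome 4, which held 5 members. The X was thus the densest arm for this class. In introns of long genes the order was not the same, with 49.2 on 2L, 47.4 on X and 28.4 on 3R. Over all arms the density was 69.6 for members and 37.9 in long genes. The embryos were of both sexes, so the copy number of X was lower than that of the autosomes, and the part of this in the values was not tested.

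**Figure D2:**
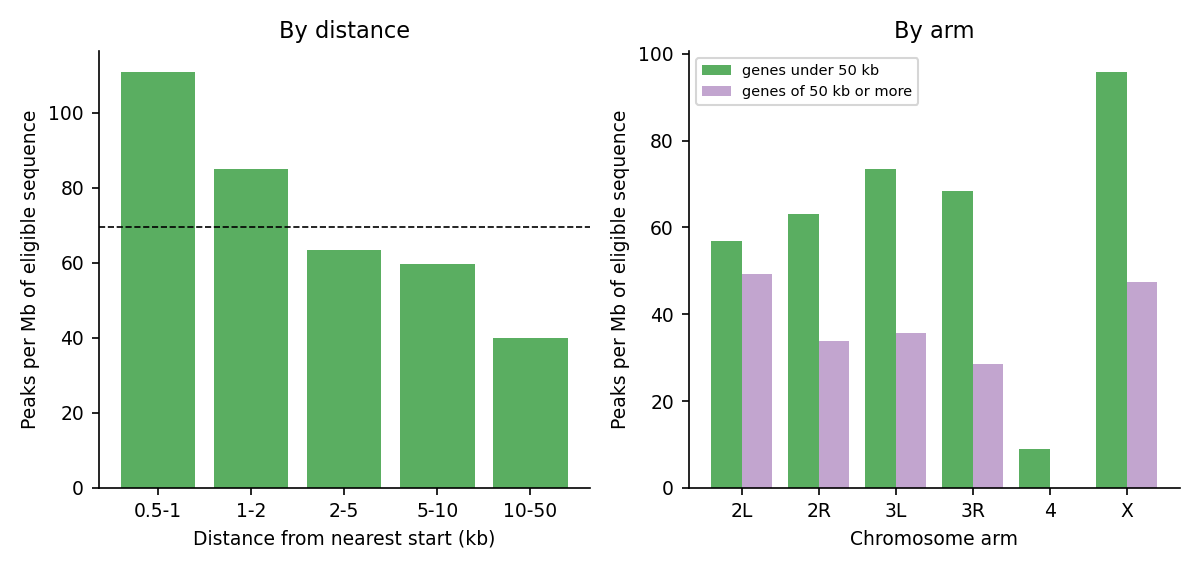
Members per Mb of eligible intronic sequence by distance from the nearest start (left, kb, with the value for the class, 69.6, as a dashed line) and by chromosome arm (right, with intronic IDR peaks in genes of 50 kb or more beside them). Density fell from 110.9 to 39.8 per Mb with distance, and X stood highest among the arms for genes under 50 kb.

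By length of the host, density was 54.0 per Mb in genes under 5 kb, 83.5 from 5 to 10 kb, 83.2 from 10 to 20 kb, 75 from 20 to 30 kb, 60.5 from 30 to 40 kb and 51.2 from 40 to 50 kb. It was highest in genes of middle length. Just inside the limit lay NetA, an axon guidance ligand gene of 49917 bp with 6 members from 319.9 to 1922, Dyrk2 (49649 bp, 2 members) and CG42673 (49494 bp, 1 member). Just outside lay ab (50403 bp, 4 peaks from 209.1 to 355.7), ftz-f1, a nuclear receptor gene (50703 bp, 5 peaks from 233.6 to 449.5), and caps (50951 bp, 3 peaks from 391.0 to 482.5). At the other limit, members in Asator, CG3630 and cu had their nearest start at 501, 501 and 502 bp.

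Most host genes held 1 member. Of the 994 hosts, 575 held 1, 206 held 2, 137 held 3 or 4 and 76 held 5 or more, and these 76 accounted for 463 members (24.3%). The nearest start belonged to the host itself for 1434 members (75.4%), and 82 members (4.31%) lay inside another gene too, so the gene that holds a peak is a label of position. Of the members, 1862 lay in protein-coding genes, 39 in noncoding RNA genes and 1 in a pseudogene. The next IDR summit was a median of 2308 bp away, and within 1 kb for 427 members (22.5%).

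The gene with most members was raskol, a Ras GTPase-activating protein gene of 41.9 kb on X, with 10. Their signal values ran from 196.5 to 634.3, all were found in both replicates, and the strongest had 317.9 in replicate 2 and 307.6 in replicate 3. Raf, the kinase gene below Ras, held 9 members spread over 31.8 kb, from 223.8 to 2465, of which the strongest had 1428 in replicate 2 and 1038 in replicate 3. None of the 9 was in a first intron, and no IDR peak lay at a start of Raf. CHES-1-like, a forkhead family gene, held 9 from 236.5 to 2065, all in first introns. Mnt, which encodes a repressor that pairs with Max, tou, a chromatin factor gene, mew, an integrin alpha subunit gene, and Src64B, a Src kinase gene, held 9 each. They were followed by siz, tna, which encodes a SUMO ligase family protein, and RhoGAP18B with 8 each. Within siz the strongest member, at 8952, stood far above the other 7, which ran from 218.6 to 961.

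Genes with more intronic sequence held members more often, which bears on the counts for every group of genes. Of 8017 protein-coding genes under 50 kb with any eligible sequence, 968 held a member (12.1%). This share was 1.06% in genes with under 1 kb of eligible sequence, 14.9% from 1 to 3 kb, 32.4% from 3 to 10 kb and 49.5% above 10 kb. Counts of a list are therefore given with its members per Mb, for which the value over all these genes was 69.7. No list was tested, and the lists were written with earlier results of these data known.

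The Egfr and Ras pathway list had the highest density of the 26 lists reported. Of 15 Egfr and Ras pathway genes, 8 held 34 members (197.6 per Mb, median eligible sequence 10.8 kb). The strongest were in Raf (2465), in aop, the Ets repressor gene of the pathway (1907), in S, which encodes the chaperone Star of the ligand Spitz (1835), and in drk, an adaptor gene (1449). At aop the value was 1102 in replicate 2 and 803.3 in replicate 3, and at S 1060 and 776.4. Egfr, the receptor gene, held 7 members, the strongest at 592.3. Raf held 9, aop 6 and S 6, so most of the 34 members lay in Egfr and these genes. Feedback inhibitor sty held 1, at 255.7.

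The BMP and activin list was next among lists of 15 genes or more, with 9 of 15 genes and 27 members (167.5 per Mb). Its strongest members lay in cv-2, a gene for a secreted BMP modulator (2191), in Mad, the Smad transducer gene (2078), in dlp, a glypican gene (1842), and in Dad, an inhibitory Smad gene (1811). The ligand gene dpp held 2, the strongest with 512.1 in replicate 2 and 407.4 in replicate 3, and the antagonist gene sog held 5. Of 18 Hippo and polarity genes, 10 held 23 members (140.1 per Mb), led by the upstream regulators kibra (2346) and ex (1376). The kinase gene wts held 3 and sd, the partner gene of Yorkie, 1. Of 17 Wingless genes, 7 held 20 members (103.9 per Mb), with the inhibitor nkd (2385), the co-receptor gene arr (1578), Wnt4 (1070) and the kinase gene sgg (496.3) strongest.

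Genes of axon guidance and chromatin lay in the same range. Of 26 axon guidance and neural adhesion genes, 14 held 46 members (107.8 per Mb), led by fra, a netrin receptor gene (2324), its ligand gene NetA (1922), trio (1092) and ena (1063). The ena peak was one of those higher in replicate 3, with 387.2 in replicate 2 and 669.8 in replicate 3. Of 31 Polycomb and trithorax group genes, 10 held 17 (149.6 per Mb), led by Trl (5205), trx (3061), Psc (1520) and ph-p (1326). The median eligible sequence of these 31 genes was 1.04 kb, against 0.442 kb over all genes.

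Factors that pattern the embryo were nearer the value over all genes. Per Mb it was 58.2 for axis and segment patterning genes (4 of 20 genes), 84.4 for homeotic genes (3 of 8), 65.0 for neurogenesis regulators (7 of 18), 71.3 for mesoderm and muscle genes (10 of 27), 60.9 for the Notch pathway (6 of 14), 51.1 for ecdysone and nuclear receptor genes (3 of 15) and 68.7 for GATA factors with ush (3 of 5). Strong members of these lists lay in Hr3 (4272), brat, a translational repressor gene (3036), mbc, a myoblast fusion gene (2404), N, the Notch receptor gene (2322), grh (2062) and Abd-B (1420). Smaller or mixed lists above 69.7 per Mb were JAK-STAT (2 of 8 genes, 158.4), insulin and TOR (5 of 18, 148.2), Hedgehog (2 of 9, 145.5), cell cycle (3 of 18, 126.7), circadian clock (3 of 8, 122.0), immune signalling (6 of 16, 88.8) and tracheal and epithelial genes (7 of 17, 80.3).

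Lists of structural, synaptic and housekeeping genes held few, and most of these have little eligible sequence. Ion channel and synaptic genes had 3 of 29 with a member and 13.3 members per Mb, with a median of 5.30 kb of eligible sequence, and their strongest, in Syn, was one of the CTCF-type peaks. Cuticle protein genes had 1 of 29, in Cpr73D (301.4). No member lay in the 26 cytoplasmic and 20 mitochondrial ribosomal protein genes, 112 chemosensory receptor genes or 61 cytochrome P450 genes with eligible sequence, whose medians were 0.100, 0.108, 0.173 and 0.178 kb. These lengths are below the 0.442 kb of all genes and in the range where 1.06% of genes held a member, so nothing is read from these counts.

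**Figure D3:**
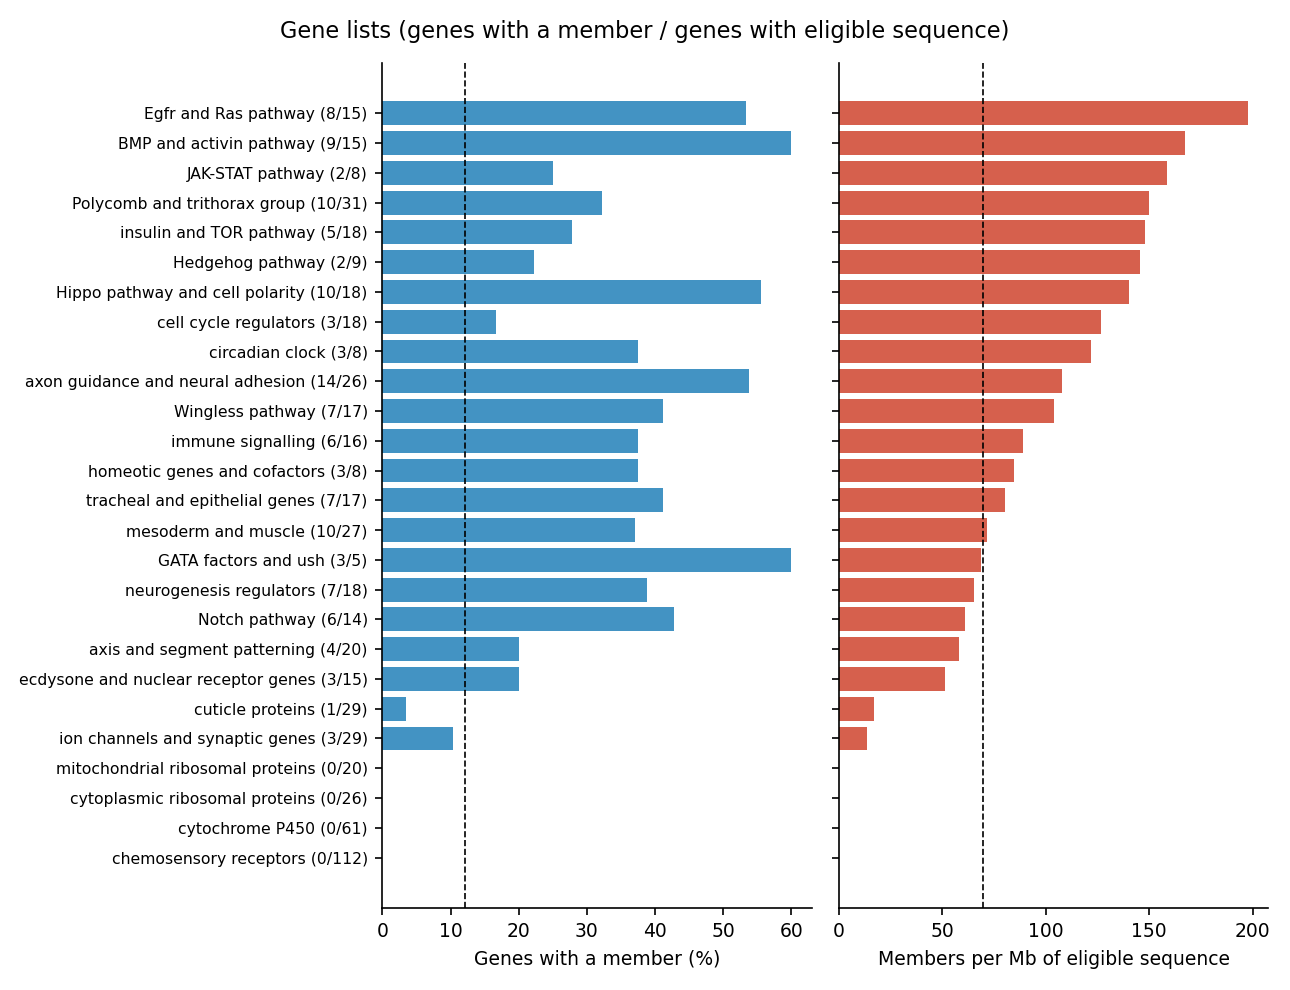
Percentage of genes with a member (left) and members per Mb of eligible intronic sequence (right) for 26 gene lists, ordered by the value on the right. Dashed lines give the values over all protein-coding genes under 50 kb with eligible sequence, 12.1% and 69.7 per Mb, and Egfr and Ras pathway genes stand highest on the right at 197.6.

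The share of genes with an IDR peak at one of their own starts differed with the presence of a member, a difference that was not tested. Such a peak, within 500 bp, was present in 438 of the 968 genes with a member (45.2%) and in 28.4% of the 7049 without. With over 10 kb of eligible sequence the shares were 50.7% and 15.4%, and with under 1 kb they were 29.6% and 29.4%. Host genes with and without a start peak were both common, as Trl, aop and fra had one and Raf, Mad and NetA did not.

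Summits of members were poor in G and C. Mean GC content was 31% ± 8.04 (SD over 1902 peaks) in the summit window and 44.7% in the flanking windows centred 300 bp away, a difference of −13.7 points (SD 11.2). Tiled eligible sequence had a mean of 39.8%, above the summits and below the flanks. GC content was lower at the summit than in the flanks in 1676 members (88.1%). The strongest class peaks of replicate 2's own list had 30.6% and those of replicate 3's 32%. The median was 29.7% in members, 40.6% in weaker peaks of the class, 39.6% in tiled eligible sequence and 28.7% at IDR summits in introns of long genes. Cut into 4 groups by signal value, members had 28.8% ± 7.11 (SD over peaks) in the strongest group and 33.3% ± 8.83 in the weakest, and the groups between lay between these. The share of windows with the TATA box TATAAA was 30.5% in the strongest group and 21.6% in the weakest. The homeobox core TAATTA (16.4% and 11.6%) and the run TTTTTTT (16.4% and 9.87%) were also lower in the weakest. The GATA motif AGATAA was at 10.5% in both, and Caudal TTTATG at 16.2% and 16.6%. The forkhead motif TGTTTA (13.2% and 16.4%) and Bicoid TAATCC (2.52% and 4.83%) were higher in the weakest. None of these differences was tested.

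**Figure D4:**
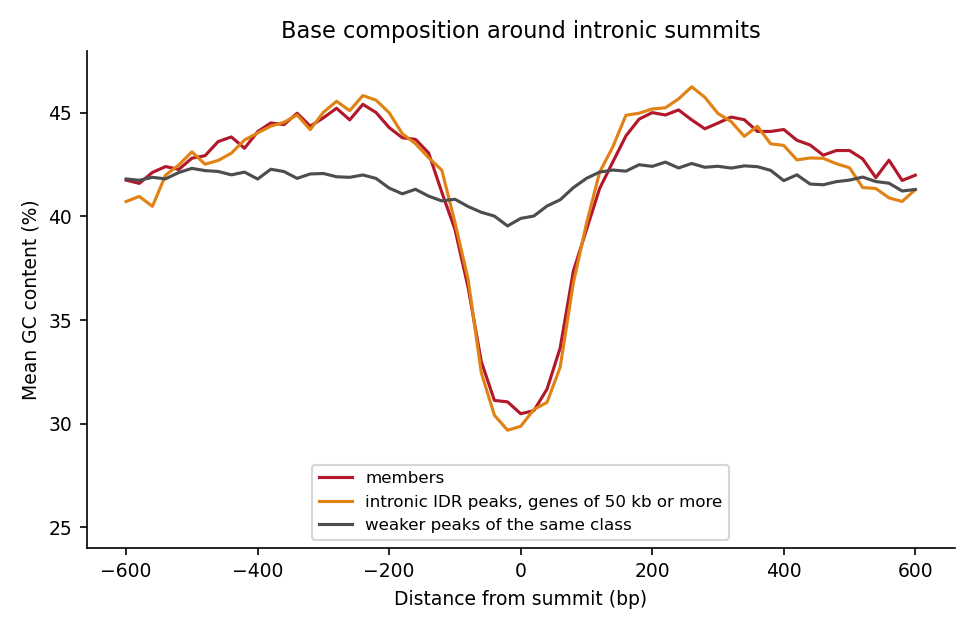
Mean GC content (%) against distance from the summit (bp) for members, intronic IDR peaks in genes of 50 kb or more and weaker peaks of the same class. The curves of members and long-gene peaks fall steeply within about 100 bp of the summit, and that of weaker peaks has a shallow dip.

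The dip came with longer stretches of A and T. The longest run without G or C in the summit window had a median of 10 bp (interquartile range 8 to 13) in members, 7 bp in the flank at lower coordinates and 8 bp in weaker peaks and in tiled sequence. A run of 20 bp or more was present in 120 members (6.31%), 1.37% of flanks, 2.47% of weaker peaks and 2.59% of tiles. Intronic IDR peaks in long genes were like the members, with a median of 11 bp and 7.24% with such a run.

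Motifs rich in A and T were more frequent at member summits than beside them. Of 48 preset motifs, each searched on both strands of the window, 13 were more frequent at summits than in the flank at lower coordinates (27.1%) and 19 less frequent (exact sign test over peaks that differ, Benjamini-Hochberg adjustment). The 13 became 7 with the flank at higher coordinates, 6 with 51 bp windows and 8 above the IDR list's median signal value. TATAAA, the TATA box, was in 26.5% of members, 9.31% of flanks and 13.7% of tiles (exact sign test against flanks, adjusted p = 1.96e-41). Its share was similar in intronic IDR peaks of long genes (27.2%) and IDR peaks at starts (24.5%). The homeobox core TAATTA was in 12.9% of members, 5.63% of flanks and 7.92% of tiles, and the GATA motif AGATAA in 10.6%, 4.94% and 6.59%. The forkhead motif TGTTTA was in 16.0%, 9.78% and 11.0%. The others more frequent were Bicoid TAATCC, Caudal TTTATG, Su(Hw) core TGCATAC, Ohler motif 6 AAAATACC, CTCF core variant AGATGGC, TCF ATCAAAG, Stat92E TTCNNNGAA, Tramtrack AGGATA and the Hunchback run TTTTTTT. Bicoid (3.36% of members, 3.66% of tiles) and Tramtrack (3.15% and 3.25%) were not above tiles. With replicate 3's own list, Su(Hw), TCF and Tramtrack did not pass against flanks (exact sign test, adjusted p = 0.105, 0.0547 and 0.106). With replicate 2's own list Su(Hw) did not pass (exact sign test, adjusted p = 0.0767).

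Motifs less frequent at summits were mostly rich in G and C. GAGAG, the motif of the GAGA factor, was in 8.52% of members, 16.7% of flanks and 11.0% of tiles. GCCAT, a Pho motif, was in 12.9%, 19.6% and 19.5%. The CLAMP repeat GAGAGAGA (0.526% and 1.74%) contains GAGAG, and the dinucleotide repeat CACACA was in 6.15% of members and 12% of flanks. Motifs of factors that shape signalling and patterning were also lower, among them Mad, spelled GCCGGC, Scalloped, spelled GGAATG, Ets, spelled CCGGAA, Su(H), spelled GTGGGAA, Dorsal, spelled GGGAAAA, Snail, spelled CAGGTG, and Grainyhead, spelled AACCGGT. The rest were the E-box of Myc, spelled CACGTG, a second E-box, spelled CAGCTG (1.89% and 5.26%), Zeste, spelled TGAGTG, E2F, spelled TTGGCGC, Sp/KLF, spelled GGGGCGG (0.158% and 2.05%), the CTCF core, spelled AGGGGGC, and the words ACCGCG (0.683% and 1.58%) and GCGCCA (3.10% and 4.99%) kept from an earlier result on these data. GCGCCA was in 3.05% of tiles, close to its share of members, and the other motifs less frequent than in flanks were also below tiles. The 19 became 13 with 51 bp windows, 16 with the flank at higher coordinates and 12 above the IDR list's median signal value. Grainyhead, in 1 member, did not pass in replicate 3's or 2's own list (exact sign test, adjusted p = 0.162 and 0.0888). Zeste did not pass in replicate 3's (adjusted p = 0.0984), nor ACCGCG in replicate 2's (adjusted p = 0.134, exact sign test). The Zelda motif CAGGTAG was in 0.421% of members and 0.736% of flanks (adjusted p = 0.371, exact sign test). A match only says that these letters are in the window.

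Against weaker peaks of the class the same contrast appeared, and none of its calls held once windows of like GC content were compared. In this test 6 motifs were more frequent in members (12.5%), namely the TATA box (26.5% against 14.6%), homeobox, Caudal, GATA, forkhead and Hunchback motifs, and 14 less frequent (Fisher's exact test, Benjamini-Hochberg adjustment). The 14 were the BEAF-32 motif, spelled CGATA (9.10% against 12.1%), and the GAGA factor, CLAMP, CA repeat, both E-box, Snail, Mad, Ets, Scalloped, Pho, Zeste, Dorsal and Sp/KLF motifs. In replicate 3's own list Caudal, Ets and Zeste did not pass (Fisher's exact test, adjusted p = 0.282, 0.447 and 0.211). In replicate 2's own list Dorsal did not pass (Fisher's exact test, adjusted p = 0.0727). Within 5 classes of GC content (Cochran-Mantel-Haenszel chi-square test) 2 motifs were more frequent and 1 less. By this chi-square test the TATA box had an odds ratio of 0.991 (adjusted p = 1). The 2 were the CTCF core variant AGATGGC (odds ratio 1.97, adjusted p = 0.0281) and GCGCCA (2.27, adjusted p = 3.69e-06, chi-square). GCGCCA was in the preset list because of an earlier result on these data, so its p-value is not independent support. The Hunchback run turned from higher to lower (odds ratio 0.756, chi-square, adjusted p = 0.0281). GC content was that of the window searched, with the motif's own bases in it. A call lost within the GC classes therefore does not show that the motif was equally frequent.

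All 6-mers gave the same picture. Of all words of 6 bases, counted on both strands, 336 were more frequent in members than in weaker peaks (16.2%) and 857 less frequent (Fisher's exact test, adjusted over all words). Both replicates' own lists called the same 261 of the 336. All 36 words made of A and T alone were among the 336. The smallest p belonged to TTAAAA, found in 34.4% of members and 16.6% of weaker peaks, and to ATTTAA (31.2% and 15.5%), ATTTTA (31.7% and 16.6%), ATTAAA (30.5% and 15.8%) and ATATTA (24.4% and 11.7%). On the other side stood GCAGCC (1.37% and 5.05%), GCCAGC (1.84% and 5.72%), CCAGCC (0.683% and 3.61%), GACGAC (0.263% and 2.63%) and CGCCGC (0.736% and 3.68%). Within the 5 classes of GC content the Cochran-Mantel-Haenszel test called 3 words more frequent and 0 less, where Fisher's exact test had called 857 less, and none of the 336 was among the 3. The 3 were GCGCCA (odds ratio 2.27, adjusted p = 0.00016), CAGCGC (2.28, adjusted p = 0.0419) and AGGTGG (1.98, adjusted p = 0.0457, chi-square). GCGCCA was in 3.10% of members and 3.43% of weaker peaks before GC content was taken into account.

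GCGCCA and AGGTGG both occur in one 9-base word, AGGTGGCGC, read on opposite strands, and AGATGGC starts a close form of it. AGNTGGCGC covers both. This form was chosen after the values were seen, from 9 spellings tried, with shares and replicate ratios of each in view, so its values are a description with no test. It was in 30 members (1.58%, 95% Wilson interval 1.11% to 2.24%), 0.556% of weaker peaks of the class, 1.76% of intronic IDR peaks in long genes and 1.27% of IDR peaks at starts. Tiled eligible sequence held it in 0.223% of windows, and the members' flanks in 0.526% and 0.158%. AGATGGCGC was in 19 members and AGGTGGCGC in 13.

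Members with the word differed from the rest in their replicate values. Of the 29 found in both replicates, 24 were higher in replicate 3 (82.8%), against 321 of 1820 members without it (17.6%). The median log2 ratio of replicate 2 to replicate 3 was −0.70 with the word (quartiles −0.85 and −0.26) and 0.31 without (0.11 and 0.48). Other spellings gave medians of −0.16 (AGNTGGC, 78 members), −0.24 (TGGCGC, 59 members) and −0.04 (AGNGGGCGC, 4 members), and the remaining 5 from −0.76 to −0.65. In introns of long genes, which the rule leaves out, the medians were −0.12 for 16 peaks with the word and 0.31 for 925 without. Median signal values were 460.9 with the word and 390.2 without.

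Among strong members the word was found on the side of higher replicate 3 values. Of the 250 strongest members, with signal values from 1046 up, 13 were higher in replicate 3, and 6 of these held the word. It was in 0 of the 237 that were higher in replicate 2. Those 6 were siz, CG43980, Syn, CG13003, Naprt and CG43693. At Naprt, a gene of NAD synthesis, the value was 682.5 in replicate 2 and 1156 in replicate 3, and at CG43693 the replicates were about level with 597.5 and 601.3. The 13 also included both chas peaks, with 1518 and 808.3 in replicate 2 and 2180 and 1388 in replicate 3, whose windows do not hold the word. Mean GC content was 42.3% in the 13 and 27.3% in the 237, and the word is itself rich in G and C. The word was also chosen with replicate ratios in view. The split of 6 and 0 thus follows in part from that choice, and it was not tested.

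Weaker members with the word spanned varied hosts. The lncRNA:bxd gene of the bithorax complex held one at 111.7 in replicate 2 and 124.8 in replicate 3. Egfr held one at 117.5 and 140.7. At sev, a receptor tyrosine kinase gene of the eye, the values were 64.8 and 175.4, a log2 ratio of −1.44. The opposite extreme was nrv2, a sodium pump subunit gene, with 179.6 and 95.8. The gene with most members, raskol, held 1, at 230.5 and 325.8.

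GC content moved with both the word and the ratio. It was 43.2% ± 6.41 (SD over 30) in members with the word and 30.8% ± 7.91 in those without. In the richest of 5 equal groups by GC content, from 36.6% up, the median log2 ratio was −0.65 for the 23 with the word and 0.16 for the 347 without, of which 140 (40.3%) were higher in replicate 3. In the next group it was −0.88 for the 6 with the word and 0.33 for the 364 without. The other 3 groups held no member with the word and had medians of 0.33, 0.34 and 0.33. The median ratio was thus lower in the richest group also among members without the word. The word was chosen with replicate ratios in view, and the richest group spans 36.6% to 65.3% GC. The parts of the word and of GC content in the ratio were not tested.

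**Figure D5:**
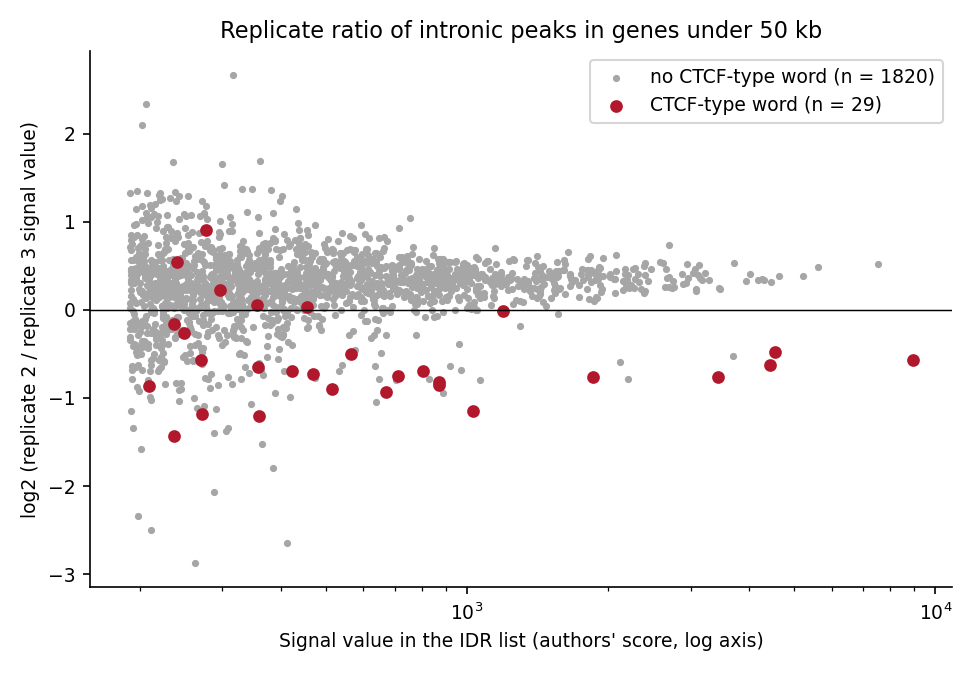
Log2 ratio of replicate 2 to replicate 3 signal values (y axis) against signal value in the IDR list (x axis, log scale) for members found in both replicates, with the 29 that hold the CTCF-type word as large points. Most members lie in a band near 0.31, and 24 of the 29 lie below 0.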

How the data were processed

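Peaks came from narrowPeak lists on dm6, per the text deposited with them: 1 per replicate (30000 peaks each), 1 called by the authors on both replicates together against 1 control alignment (30000), and the IDR list derived from these, which is the pooled list's strongest 25.4%. For caller, aligner and read depth, the sources used here name none. The authors deposited a score per peak, called signal value, with no common depth. The −log10 q value deposited beside it has a maximum of 4.27 shared by many peaks and was not used. Summits were placed in the Ensembl release 115 annotation, of which 97.3% of 18164 genes have the same span in RefSeq's Release 6 annotation. Eligible sequence is intronic sequence that meets the rule, in tiles of 101 bp. Counts were compared by Fisher's exact test, the exact sign test or the Cochran-Mantel-Haenszel test over 5 GC classes, two-sided. Adjustment was by Benjamini-Hochberg, with a threshold of 0.05 (Python 3.11.15, scipy 1.17.1). Simulated data were used for the 6-mer comparisons by Fisher's exact and Cochran-Mantel-Haenszel tests and for summit matching, not for the exact sign test. Adjusted p-values of the shares are over 3 tests. Intervals cover counting error only. Named items were hosts of the 25 strongest members, the 10 genes with most, up to 4 per gene list (26 lists; 1 other is not reported here; other genes in the text were chosen after their values were seen), motifs past the threshold and 5 6-mers per direction. The members, lists and motifs were chosen with earlier results of these data known, and the CTCF-type pattern was among those. Older list symbols were replaced by the annotation's current names, found as synonyms in RefSeq. Alternatives were each replicate's own list, other windows, limits and overlaps, and the IDR peaks above the list's median signal value. Sequence of members on 2R is not shown.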

Additional observations from a re-analysis of the deposited data

How the results depend on the processing

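Of the alternatives, 49 kept the direction and side of the threshold or the size of the result, 5 lost the threshold and 13 moved a value or count, and none reversed a share. Against long-gene introns the fold of the IDR share, 0.92, was 0.931 and 0.943 in the replicates' own lists (without replicate 2 or 3), 0.968 for IDR peaks above the list's median signal value (the strong set) and 0.909 with a limit of 100 kb, and only the first of these passed. Against all other peaks the strong set gave 0.986, which did not pass, and the first intron fold was 1.04 at 100 kb (adjusted p = 0.0513, Fisher's exact test). Members found in both replicates made up 85.9% with summits within 50 bp, 98.9% within 200 bp and 99.3% with any overlap. The strong set left 660 host genes. Against flanks, 6 motifs were more frequent with 51 bp windows, 7 with the other flank and 8 with the strong set, which had 12 less frequent. Less frequent 6-mers fell to 539 with 51 bp windows. Within 5 GC classes 2 motifs and 3 6-mers were more frequent and 1 and 0 less. No paired analysis was possible because there is 1 group. Read depth is unknown, so small differences between replicates cannot be weighed against counting error.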
